A study of Mus musculus with 24 samples.

Results

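The 9 genes described here set or sense vascular tone in the wall of brain microvessels. They are Nos3, Edn1, Ednra, Ednrb, Ece1, Ptgs1, Ptgs2, Klf2 and Klf4, chosen by their symbols from the 17270 genes of the series. The study asked how gene expression at the neurovascular unit changes early and late after stroke. Microvessels were isolated from the brains of male C57BL/6J mice aged 10 to 12 weeks after transient middle cerebral artery occlusion (tMCAO) of 60 min or after sham surgery, and RNA was sequenced. In tMCAO a filament is pushed through the carotid artery to block the middle cerebral artery and is then withdrawn. In sham-operated mice the filament was withdrawn as soon as it had reached the branching point, so these mice went through surgery on the carotid artery without the occlusion. The ipsilateral (operated) and the contralateral hemisphere were taken 24 h or 7 days after surgery, which gave 8 groups of 3 libraries. Each library pooled the microvessels of 3 hemispheres, so 9 animals stood behind each group, and the p-values measure the spread between such pools. Genes are compared by their normalized count, a read count divided by a factor for the depth of the library and rounded.

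Endothelial nitric oxide synthase, encoded by Nos3, makes nitric oxide, which diffuses to smooth muscle, raises cGMP and relaxes the vessel. Endothelin-1, encoded by Edn1, is made as a precursor and cut to its active form by the endothelin-converting enzyme of Ece1. It constricts vessels through the type A receptor (Ednra) on smooth muscle and pericytes, while the type B receptor (Ednrb) on endothelium releases nitric oxide and clears the peptide. In the brain Ednrb is also carried by astrocytes. The cyclooxygenases of Ptgs1 and Ptgs2 make the precursor of prostacyclin, thromboxane and the other prostanoids. Klf2 and Klf4 encode transcription factors that rise under laminar flow and drive Nos3 in cultured endothelium.

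A library summed to 15924780 up to 18787932 normalized counts, and replicates of a group correlated with r between 0.967 and 0.988 on the log2 scale. Markers of endothelium were high in each library, with sums of 8 genes from 180983 to 267744 normalized counts, and none of the 8 was at 0 in any group. Markers of other cell types differed between tMCAO and sham mice. At 24 h the markers of neutrophils and monocytes summed to between 3457 and 6567 normalized counts in the ipsilateral hemisphere of tMCAO mice and to between 334 and 1219 in that of sham mice, and 8 of 8 rose. The mean of the neuron markers differed from sham by -1.17 on the log2 scale at 24 h and by -2.41 at 7 days, and that of the astrocyte markers by -0.72 and -0.69. At 7 days the choroid plexus markers differed by -2.69 (4 of 6 fell), the fibroblast markers by -0.77 (2 of 6 fell) and the proliferation markers by 2.45 (4 of 4 tested rose), each without overlap. The mean of the endothelial markers differed by -0.16 and 0.13, with overlapping libraries at both times. The part of such shifts in the results on the 9 genes was not tested beyond the values given, and in bulk samples fewer cells of a type cannot be told apart from less RNA per cell.

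**Figure D1:**
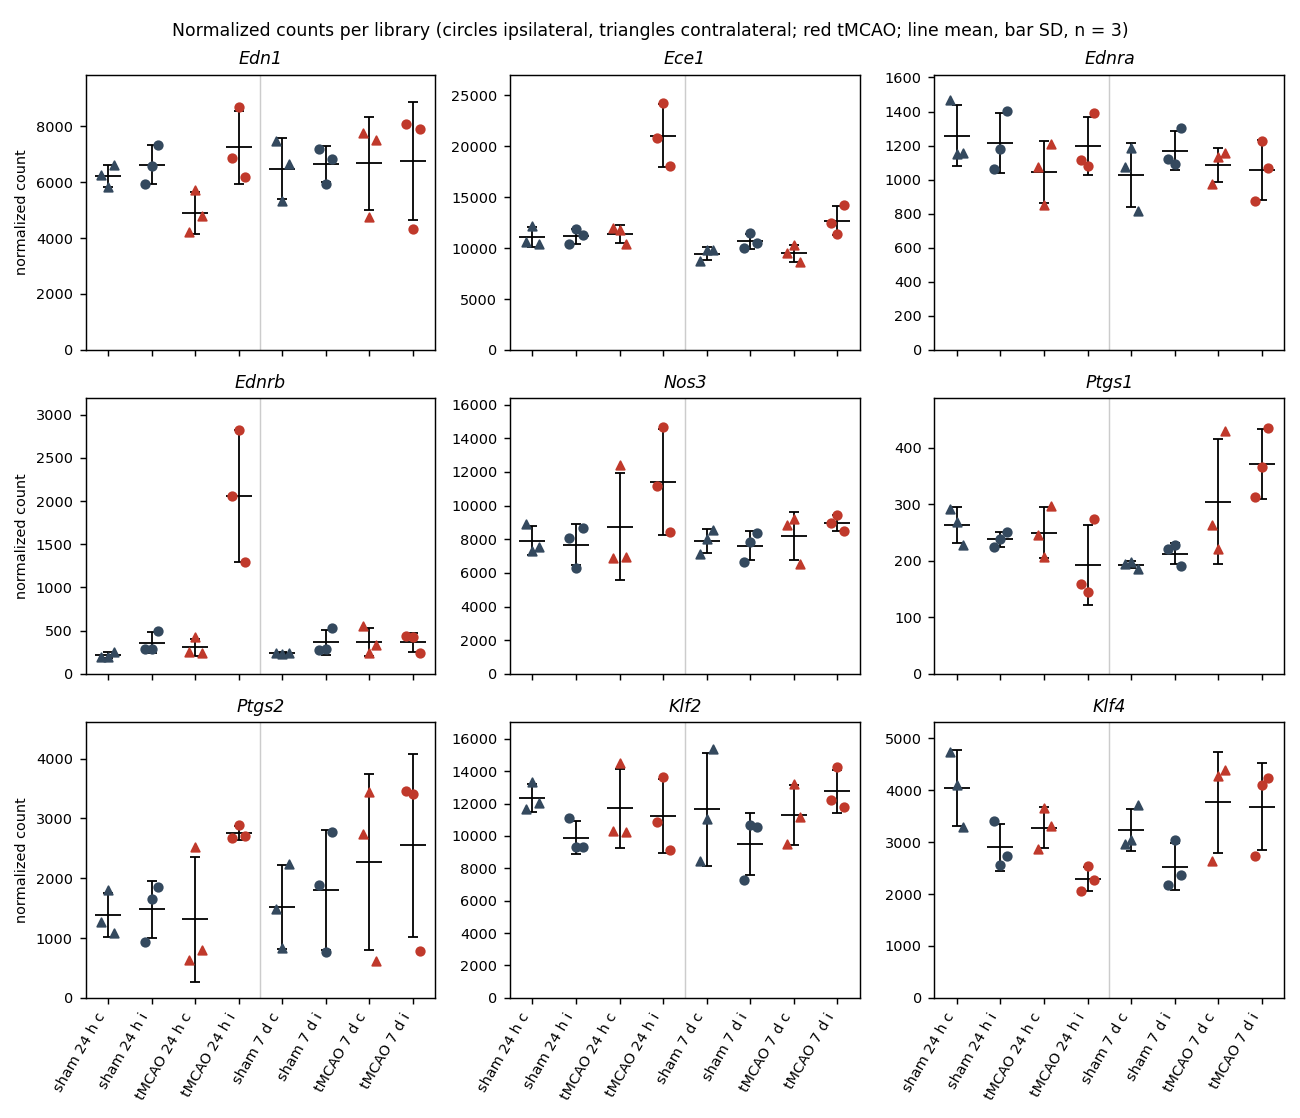
Normalized counts of the 9 genes (vertical axes, starting at 0) in the 24 libraries by group (horizontal axis, c contralateral and i ipsilateral), with the mean and SD of 3 libraries. The 3 ipsilateral libraries of tMCAO mice at 24 h stand above all other libraries for Ece1 (18105 to 24256) and Ednrb (1295 to 2816), while Ptgs2 is spread widely within most groups.

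All 9 genes passed the limit on low values. Divided by the summed exon length, the level in the 12 sham libraries was highest for Klf2, with 5875 ± 1175 (SD) normalized counts per kilobase. Edn1 followed with 3035 ± 308. Ece1 with 1999 ± 185 and Nos3 with 1881 ± 197 could not be separated by their spread, since their ranges of 1639 to 2302 and 1522 to 2151 overlapped. Klf4 stood at 1043 ± 242, Ptgs2 at 338 ± 132 and Ednra at 213 ± 30.9 on the same scale. Ednrb with 69.4 ± 25.5 and Ptgs1 with 58.3 ± 8.31 were the lowest, again with overlapping ranges. Ligand, converting enzyme and nitric oxide synthase were thus measured at levels far above those of the receptors and of Ptgs1.

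On the ipsilateral side, 2 of the 9 genes were regulated 24 h after tMCAO relative to sham surgery, both upwards. They were Ednrb and Ece1. A gene was called regulated with a Benjamini-Hochberg adjusted p under 0.05 in limma and a change of more than 1.5-fold in either direction. Among all 15982 genes tested, 18.3% were regulated at this time, 10.0% upwards and 8.23% downwards. At 7 days Ptgs1 was regulated, again upwards, which is 1 of 9 beside 13.2% of all genes, 3.27% upwards and 9.95% downwards. Compared with the contralateral hemisphere of the same surgery, Ednrb and Ece1 were higher at 24 h beside 13.6% of all genes regulated, and none of the 9 passed at 7 days beside 13.0%. These comparisons share the stroke libraries. The shares of the 9 genes lay near those of all genes. Their median log2 fold change was 0.17 at 24 h and 0.25 at 7 days, against -0.02 and 0.02 over all genes.

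**Figure D2:**
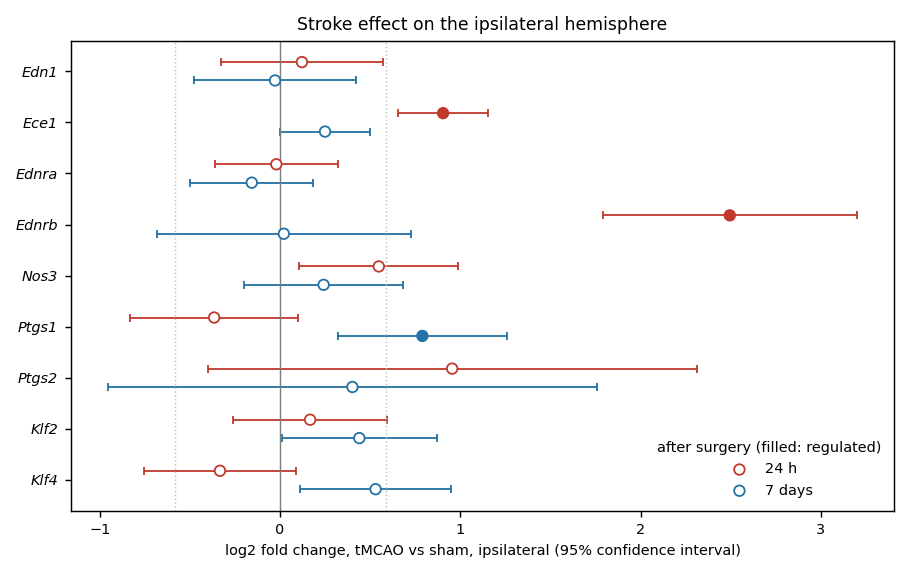
Log2 fold change of the 9 genes between tMCAO and sham mice in the ipsilateral hemisphere (horizontal axis) at 24 h and 7 days, with 95% confidence intervals. Filled points passed both limits, the dotted lines mark the limit of 1.5-fold in either direction, and Ednrb with 2.50 at 24 h and 0.02 at 7 days shows the widest gap between the time points.

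Time after stroke separated the genes further. Within the ipsilateral hemisphere of tMCAO mice, 4 of the 9 genes differed between 7 days and 24 h, beside 12.2% of all genes. Ednrb and Ece1 were lower at 7 days, and Ptgs1 and Klf4 were higher. The stroke effect itself differed between the time points for 3 of the 9, Ednrb, Ece1 and Ptgs1, beside 8.12% of all genes. Without replicate 2 of the ipsilateral tMCAO libraries at 24 h only Ednrb remained of these 3.

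Few genes passed between control groups, in a fit that took all libraries as independent and did not pair the hemispheres. Between the hemispheres of sham mice 0 of the 9 genes passed in limma at 24 h and 0 at 7 days, as did 0% and 0% of all genes, while 1 and 0 of the 9 and 367 and 359 of all genes had an unadjusted p under 0.05. Between the contralateral hemispheres of tMCAO and sham mice the counts were also 0 at 24 h, beside 0% of all genes, and 0 at 7 days, beside 0.0313%, with 0 and 1 of the 9 and 405 and 1639 of all genes under an unadjusted 0.05. Between 7 days and 24 h none of the 9 passed in the sham ipsilateral hemisphere beside 0.476% of all genes, in the sham contralateral hemisphere beside 0.332%, or in the contralateral hemisphere of tMCAO mice beside 0%. At an unadjusted p under 0.05 these were 0, 0 and 1 of the 9 and 2258, 1729 and 2637 of all genes.

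Edn1, the ligand, lies on chromosome 13 at 42301476 to 42307990 of mm10 on the plus strand. In the ipsilateral hemisphere at 24 h it measured 6878, 8687 and 6167 normalized counts after tMCAO and 5939, 6571 and 7337 after sham surgery. In the contralateral hemisphere of tMCAO mice at 24 h it was 4217, 5705 and 4805. The sham contralateral libraries at 24 h held 6250, 5831 and 6604. The contralateral side of tMCAO mice thus differed from that of sham mice by -0.35 on the log2 scale, which did not pass. The ipsilateral tMCAO libraries overlapped the sham libraries of the same side, but lay above the contralateral libraries of tMCAO mice. The difference from sham was 0.12 on the log2 scale (SE 0.22, adjusted p = 0.699). The difference from the contralateral side was 0.56 (SE 0.22), at an adjusted p of 0.0652 and with no overlap, which 40.8% of all genes also showed in that comparison. The endothelial markers were lower on the stroke side by 0.28 on average, with 1 of 8 regulated. Scaled to them, the difference of Edn1 came to 0.84 and passed. At 7 days the values after tMCAO were 8079, 4313 and 7884, a range wider than all sham libraries together, which ran from 5311 to 7466. In the promoter of Edn1 the letters GAGACC, known as a shear stress response element, occurred on the opposite strand as GGTCTC, beginning 98 bases before the start site. The 250 bases before that site (chr13:42301226-42301475, plus strand, RefSeq, build GRCm38.p6) are shown with these letters in capitals, since flow is known to act on this gene.
Edn1 promoter: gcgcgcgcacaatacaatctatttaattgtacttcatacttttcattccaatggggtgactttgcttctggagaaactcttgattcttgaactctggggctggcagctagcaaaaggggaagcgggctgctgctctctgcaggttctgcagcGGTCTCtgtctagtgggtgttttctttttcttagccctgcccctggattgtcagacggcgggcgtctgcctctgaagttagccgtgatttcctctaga
The same element stood in 16.4% of the 32851 promoters of the table.

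Ece1, which cuts the precursor, lies on chromosome 4 at 137862237 to 137965229. It measured 20770, 24256 and 18105 normalized counts in the ipsilateral hemisphere of tMCAO mice at 24 h. The sham libraries of that side held 10409, 11860 and 11271, and the contralateral libraries of tMCAO mice 11960, 11762 and 10355. Each of the 3 stroke libraries exceeded all 18 control libraries, meaning the sham and contralateral ones of both time points, whose highest value was 12201. Libraries without overlap were found in 49.0% of all genes in the comparison with sham. The level was 1.87-fold that of sham, a log2 fold change of 0.90 (SE 0.12, adjusted p = 2.4e-05), and 1.84-fold that of the contralateral side (0.88, adjusted p = 4.4e-05). At 7 days it measured 12458, 11415 and 14255 after tMCAO and 10050, 11472 and 10466 after sham surgery. These libraries overlapped, and the difference of 0.25 (SE 0.12) had an adjusted p of 0.175. Against the contralateral side it was 0.42 with an adjusted p of 0.0185, below the limit on the fold change. The stroke effect at 7 days differed from that at 24 h by -0.65 (SE 0.17, adjusted p = 0.0196). That call was lost without replicate 1 of the sham ipsilateral libraries at 24 h (-0.60, adjusted p = 0.0604), without replicate 2 of the tMCAO ipsilateral libraries at 24 h (-0.55, 0.0594) or at 7 days (-0.58, 0.0503), with median centring (-0.55, 0.0618) and with the compared groups alone in the fit (0.0565).

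Ednra, the constrictor receptor on chromosome 8 at 77663031 to 77724436, showed small differences. In the ipsilateral hemisphere at 24 h it measured 1118, 1080 and 1393 normalized counts after tMCAO and 1060, 1181 and 1403 after sham surgery. At 7 days these were 877, 1227 and 1066 against 1120, 1090 and 1303. Stroke and sham libraries overlapped at both times. The log2 differences of -0.02 (95% confidence interval -0.36 to 0.32) and -0.16 (-0.50 to 0.18) did not pass. Over the 18 control libraries its highest value was 1.79-fold its lowest. The mean of the pericyte and smooth muscle markers was lower after stroke by 0.39 at both times, with overlapping libraries at 24 h and none at 7 days.

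Ednrb, the clearing and dilator receptor on chromosome 14 at 103814625 to 103844173, changed most. In the ipsilateral hemisphere of tMCAO mice at 24 h it measured 2063, 2816 and 1295 normalized counts. The sham libraries of that side held 293, 284 and 501, and the contralateral libraries of tMCAO mice 257, 422 and 245. The lowest stroke library was above the highest of the 18 control libraries, which was 549. The increase over sham was 5.64-fold, or 2.50 on the log2 scale (SE 0.34, 95% confidence interval 1.79 to 3.20, adjusted p = 2.8e-05), larger in size than that of 99.1% of the genes tested. Over the contralateral side it was 6.55-fold (2.71, adjusted p = 1.7e-05). At 7 days Ednrb measured 434, 425 and 241 after tMCAO and 274, 291 and 534 after sham surgery, and the difference of 0.02 had a confidence interval from -0.68 to 0.73. The level had fallen by 2.46 between 24 h and 7 days (SE 0.34, adjusted p = 8.1e-05), and the stroke effects differed by -2.47 (SE 0.48, adjusted p = 0.00283). These 4 calls held without each library in turn and in every alternative run.

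Astrocytes carry Ednrb, so their 8 markers were set beside it. The mean of the markers on the log2 scale was between 9.64 and 10.3 in the ipsilateral tMCAO libraries at 24 h and between 10.2 and 10.9 in the sham libraries of that side, where 4 of 8 markers fell with stroke. Ednrb thus rose in libraries whose astrocyte means were not higher, with ranges that overlapped those of sham. Against the contralateral side the means differed by -0.20, also with overlap. The 18 control libraries were set side by side in the same way. The highest Ednrb counts, 549 in replicate 1 of the contralateral tMCAO libraries at 7 days, 534 in replicate 3 of the sham ipsilateral libraries at 7 days and 501 in replicate 3 at 24 h, came from the libraries with the highest astrocyte means of 11.6, 11.1 and 10.9. In sham mice both were higher on the operated side in each of the 6 same-numbered pairs of libraries. The part of astrocytes in the level of Ednrb was not tested.

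**Figure D3:**
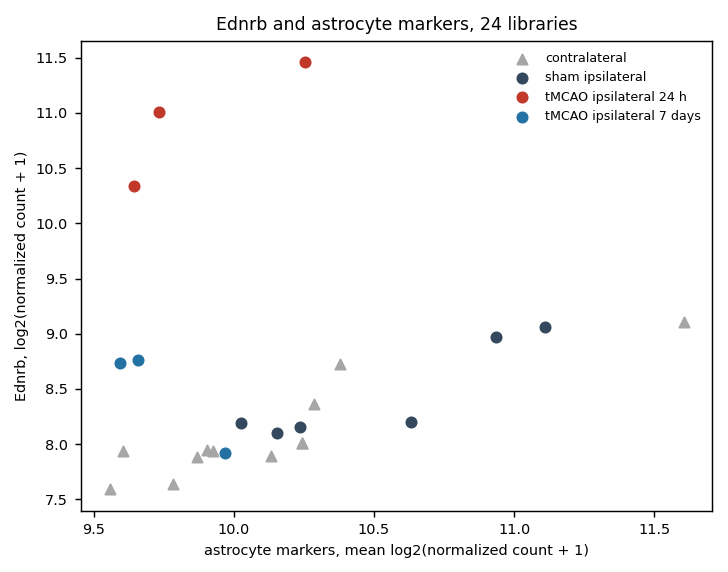
Ednrb (vertical axis, log2 of the normalized count plus 1) against the mean of 8 astrocyte markers (horizontal axis, same scale) in the 24 libraries. The 3 ipsilateral libraries of tMCAO mice at 24 h lie apart at the top with astrocyte means of 9.64 to 10.3, and the control library with the highest astrocyte mean of 11.6 has 549 Ednrb counts.

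Nos3, which makes endothelial nitric oxide, lies on chromosome 5 at 24364810 to 24384474. In the ipsilateral hemisphere at 24 h it measured 11172, 14692 and 8402 normalized counts after tMCAO and 8095, 6290 and 8671 after sham surgery. The lowest stroke library lay within the sham range. The contralateral libraries of tMCAO mice were 6866, 12413 and 6966, with replicate 2 again the highest. The increase over sham was 1.46-fold (0.55, SE 0.21), at an adjusted p of 0.0552, and did not pass. Without replicate 3 of the stroke libraries it was 0.75 (adjusted p = 0.0155) and passed, and scaled to the endothelial markers it was 0.71 (adjusted p = 0.0106) and passed. The 8 markers behind that scaling did not move alike. Against sham their median was -0.13 and 1 of 8 fell, while Pecam1 (0.34) and Cdh5 (0.42) were higher without passing. Against the contralateral side the difference of Nos3 was 0.41 (adjusted p = 0.169). It passed without contralateral replicate 2 (0.69), without ipsilateral replicate 3 (0.61) or with that scaling (0.69). At 7 days the stroke libraries held 8962, 9447 and 8492 and the sham libraries 6656, 7825 and 8353. They did not overlap, as for 30% of all genes in that comparison, but the difference of 0.24 (SE 0.21) had an adjusted p of 0.496. The level at 7 days differed from that at 24 h by -0.31 (adjusted p = 0.32), and by -0.67 (adjusted p = 0.011) with scaling to the endothelial markers. Exons of Gm15587 and Atg9b on the opposite strand cover 25.2% and 7.12% of the exonic length of Nos3. The kit kept the strand, but whether the counting used it is not given in the sources used here, so reads of these genes cannot be told apart with certainty.

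Ptgs1, the constitutive cyclooxygenase on chromosome 2 at 36230426 to 36252272, was low throughout. At 24 h it measured 158, 145 and 273 normalized counts in the ipsilateral hemisphere after tMCAO and 225, 238 and 251 after sham surgery. Replicates 1 and 2 of the stroke libraries were below all 18 control libraries, and replicate 3 was above all 3 sham libraries. The difference of -0.37 (SE 0.22) had an adjusted p of 0.221, and without replicate 3 it was -0.65 (adjusted p = 0.0279) and passed. At 7 days Ptgs1 measured 312, 365 and 435 after tMCAO and 220, 227 and 191 after sham surgery. Now each stroke library was above each sham library of that side, where 30% of all genes were without overlap, and the increase was 1.73-fold (0.79, SE 0.22, adjusted p = 0.0184). It no longer passed without replicate 3 of the sham libraries (0.71, adjusted p = 0.0667), without replicate 3 of the stroke libraries (0.67, 0.0821) or when scaled to the endothelial markers (0.66, 0.0612). The contralateral libraries of tMCAO mice at 7 days were 263, 220 and 429 and overlapped the ipsilateral ones, with a difference of 0.33 (adjusted p = 0.388). Those of sham mice held 195, 198 and 186. On the contralateral side tMCAO thus differed from sham by 0.59 (SE 0.22, adjusted p = 0.385 in limma), which did not pass. The higher level at 7 days was therefore not shown to be particular to the stroke side. The level rose between 24 h and 7 days after tMCAO by 0.99 (SE 0.22, adjusted p = 0.00448). The stroke effects differed by 1.16 (SE 0.32, adjusted p = 0.0253). That last call was lost in 5 fits, each without 1 library, namely replicate 3 of the sham ipsilateral libraries at either time, replicate 1 or 2 of the stroke libraries at 24 h and replicate 3 at 7 days, where the value lay between 0.98 and 1.12, and with scaling to the endothelial markers (0.87, adjusted p = 0.0731). Microglia are known to carry Ptgs1. The mean of their markers differed between tMCAO and sham by 0.05 at 7 days, with overlapping libraries. Against the contralateral side at 7 days it was higher by 0.65 without overlap, and 4 of 8 markers rose. The part of these cells in the level of Ptgs1 was not tested.

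Ptgs2, the inducible cyclooxygenase on chromosome 1 at 150100031 to 150108227, varied more than the other 8 genes. Over the 18 control libraries the highest value, 3443, was 5.61-fold the lowest, 614, whereas this ratio was between 1.42 for Ece1 and 2.86 for Ednrb in the others. The ipsilateral libraries of tMCAO mice at 24 h held 2676, 2895 and 2700 normalized counts. The sham libraries of that side held 941, 1652 and 1846, and the contralateral libraries of tMCAO mice 634, 2520 and 795. The 3 stroke libraries were close to each other and above both. Such a lack of overlap was found in 49.0% of all genes against sham and 40.8% against the contralateral side. The increase over sham was 1.94-fold (0.95, SE 0.65), and with the spread of all 8 groups in the fit the adjusted p was 0.273. With the spread of the compared groups alone it was 0.0164. Over the contralateral side the increase was 1.35 (adjusted p = 0.137), and with same-numbered libraries of the hemispheres paired as a block it passed (adjusted p = 0.0025), although the numbers were not shown to mark the same mice after tMCAO. Without replicate 2 of the contralateral libraries it was 1.95 and passed (adjusted p = 0.0467). At 7 days Ptgs2 measured 3457, 3404 and 790 after tMCAO and 1889, 770 and 2773 after sham surgery. The difference was 0.40 (SE 0.65, adjusted p = 0.741) with overlapping libraries, and 1.11 (adjusted p = 0.303) without stroke replicate 3. In its promoter the letters GAGACC began 237 bases before the start site, and the 250 bases before that site (chr1:150099781-150100030, plus strand, GRCm38.p6) are shown with them in capitals.
Ptgs2 promoter: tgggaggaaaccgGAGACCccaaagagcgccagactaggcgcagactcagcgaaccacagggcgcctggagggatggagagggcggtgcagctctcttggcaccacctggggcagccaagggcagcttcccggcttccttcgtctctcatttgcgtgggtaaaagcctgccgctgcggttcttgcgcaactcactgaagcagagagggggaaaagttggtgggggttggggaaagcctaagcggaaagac
Edn1 and Ptgs2 were the genes that held this element among the 8 with an entry in the promoter table, and no match says only that the letters are not in the window.

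Klf2, a flow-induced transcription factor on chromosome 8 at 72319033 to 72321656, measured 10859, 13670 and 9144 normalized counts in the ipsilateral hemisphere of tMCAO mice at 24 h. The sham libraries of that side held 11096, 9288 and 9312. These overlapped, with a difference of 0.17 (95% confidence interval -0.26 to 0.59). At 7 days the stroke libraries held 12224, 14274 and 11776 and the sham libraries 7295, 10679 and 10569. Each stroke library was above each sham library, again as part of the 30% of all genes without overlap, but the increase of 0.44 (SE 0.21) had an adjusted p of 0.158. It was smaller against the contralateral libraries of tMCAO mice, which were 9497, 13223 and 11190 (0.18, adjusted p = 0.651).

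Klf4, its close relative on chromosome 4 at 55527143 to 55532466, measured 2060, 2533 and 2278 normalized counts in the ipsilateral hemisphere of tMCAO mice at 24 h. The sham libraries of that side held 3414, 2557 and 2725, and the contralateral libraries of tMCAO mice 2875, 3657 and 3305. The stroke libraries were the lower ones in both comparisons, without overlap. Among all genes 49.0% were without overlap against sham and 40.8% against the contralateral side. The differences of -0.33 from sham (SE 0.20, adjusted p = 0.214) and -0.52 from the contralateral side (SE 0.20, adjusted p = 0.0667) did not pass. At 7 days Klf4 measured 2728, 4096 and 4234 after tMCAO and 2182, 3043 and 2368 after sham surgery. The difference of 0.53 (SE 0.20) had an adjusted p of 0.0785, and without replicate 1 of the stroke libraries it was 0.73 (adjusted p = 0.0262) and passed. Between 24 h and 7 days after tMCAO Klf4 rose 1.58-fold (0.66, SE 0.20, adjusted p = 0.0254), without overlap, as 34.2% of all genes. Over the same interval the mean of the endothelial markers differed by 0.36, without overlap, and scaled to them the increase was 0.31 (adjusted p = 0.169). The call was also lost without replicate 1 (0.59, adjusted p = 0.105) or replicate 3 (0.66, 0.0526) of the libraries at 24 h and without replicate 2 (0.57, 0.0944) or replicate 3 (0.55, 0.111) at 7 days. The stroke effects differed by 0.86 (SE 0.28, adjusted p = 0.0578), which passed without stroke replicate 1 at 7 days (1.07) or sham replicate 2 at 7 days (1.0).

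The promoter of Klf4 was rich in G and C, with 74.0% of the 250 bases before its start site and 32 CpG dinucleotides. That of Klf2 held 71.2% and 29, against 9 CpG in that of Edn1. The Klf4 stretch (chr4:55532476-55532725, minus strand, GRCm38.p6) is shown because it also held the E-box CACGTG, in capitals, which 7.15% of all promoters held.
Klf4 promoter: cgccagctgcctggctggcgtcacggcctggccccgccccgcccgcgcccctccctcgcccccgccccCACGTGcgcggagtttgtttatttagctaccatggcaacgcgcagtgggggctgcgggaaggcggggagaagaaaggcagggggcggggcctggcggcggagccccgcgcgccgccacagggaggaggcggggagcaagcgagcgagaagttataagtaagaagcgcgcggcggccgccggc
This E-box contains the hypoxia response core ACGTG on both strands. One of the 4 windows of Ece1 and the bases after the start site of Ptgs2 held it too, and Edn1 held the core alone after its start site. The core stood in 19.6% of all promoters, and Ece1 with 4 windows had more room for a match. The letters searched for AP-1, NF-kappaB, MEF2, KLF, CRE and TATA sites were found in no window of the 8 genes. Only fixed letters were searched, for MEF2 TATTTATAG alone, and other forms of these sites were not looked for. The search therefore cannot show that a gene, Klf2 included, lacks such a site in its window.

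The hemispheres were also compared in sham mice, without a stroke. The pairs rest on the shared number, which was not proven to mark the same mice. There Ednrb was higher on the operated side in 6 of 6 same-numbered pairs, by 0.61 ± 0.37 (SD) on the log2 scale. Klf2 was lower there in 6 of 6 pairs, by -0.30 ± 0.21, and Klf4 in 5 of 6, by -0.42 ± 0.25. In a 2-sided exact sign-flip permutation test over the 6 pairs the p-values were 0.0312, 0.0312 and 0.0625, where 0.0312 is the smallest possible, and after adjustment over the 9 genes 0.141, 0.141 and 0.188. None passed. A gene alone at the smallest p cannot pass after adjustment over 9 genes, so with 6 pairs this test could hardly decide the question. Among all genes 4.64% were higher and 6.79% lower on that side in all 6 pairs. The endothelial markers were lower there in 6 of 6 pairs, by 0.11 on average at each time. Those of astrocytes were higher there in 6 of 6 pairs, by 0.74 at 24 h and 0.53 at 7 days, and those of neutrophils and monocytes in 6 of 6, by 0.84 and 0.30. Their part in these differences was not tested. For Klf4 the difference between the hemispheres 24 h after tMCAO was -0.52, with same-numbered libraries at -0.54 to -0.48. At 7 days after tMCAO it was -0.02, with -0.06 to 0.05. Klf2 at that time was higher on the stroke side for 3 of 3 numbers, by 0.07 to 0.36. Whether these differences themselves differ between sham and tMCAO mice was not tested.

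**Figure D4:**
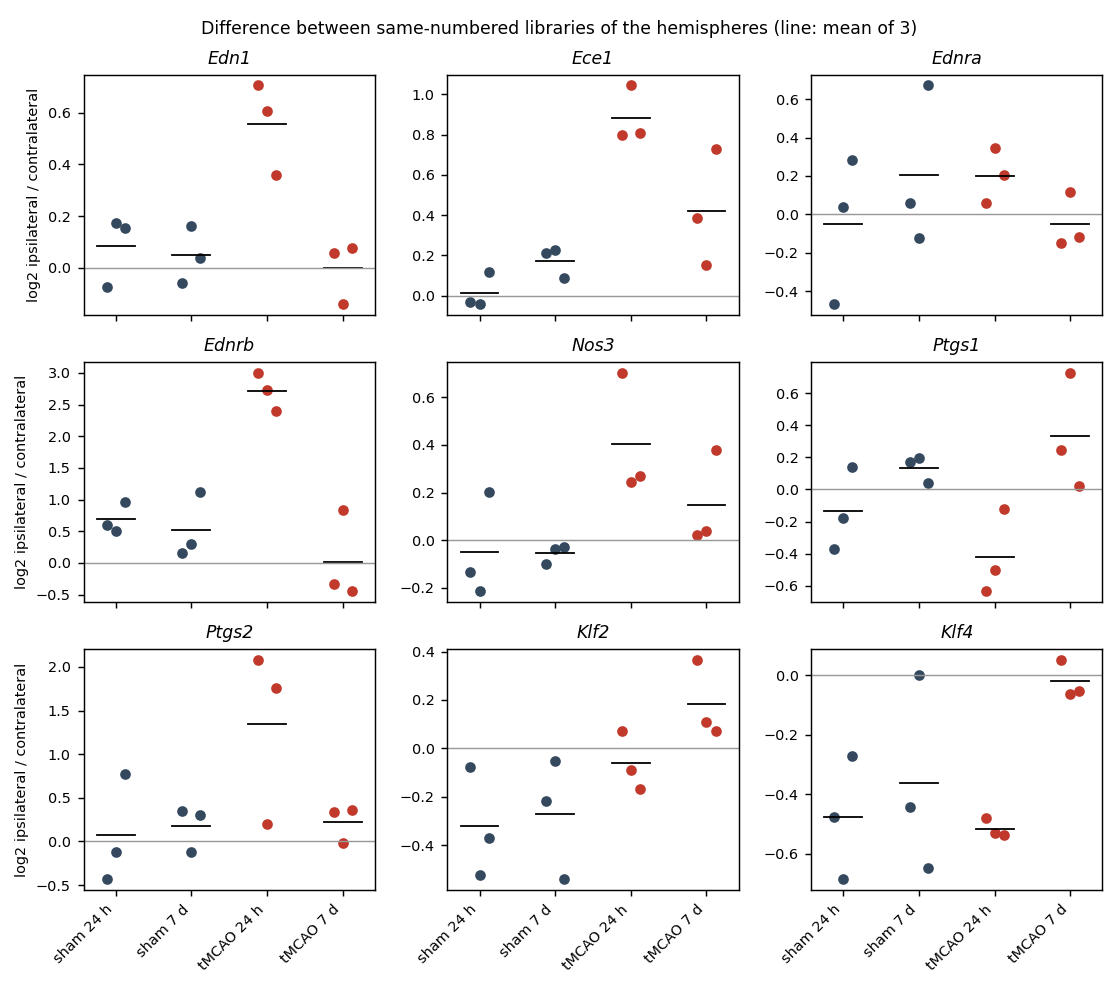
Log2 ratio of the ipsilateral to the contralateral library of the same number (vertical axes) for 3 numbers each of sham and tMCAO mice at 24 h and 7 days, with the mean as a line and 0 in grey. The means of Klf4 lie below 0 in sham mice and at 24 h after tMCAO, and its tMCAO libraries at 7 days give -0.06 to 0.05, while Ednrb reaches 2.4 to 3.0 at 24 h after tMCAO.

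Same-numbered libraries of the hemispheres often deviated together. Deviations from the group mean were compared between them over the 12 numbers of sham and tMCAO mice. The numbers were not proven to mark the same mice, least of all after tMCAO, so there it is a description of the libraries. For Edn1 they correlated with Pearson's r = 0.89 and Spearman's rho = 0.89, and in the 6 of tMCAO mice alone r was 0.94 and in the 6 of sham mice 0.75. Replicate 2 at 7 days after tMCAO was low on both sides, with 4754 and 4313 normalized counts against 7488 to 8079 in the other replicates. For Ptgs2 r was 0.77 and rho 0.73, and replicate 3 at 7 days after tMCAO was low on both sides, with 614 and 790 against 2742 to 3457. Klf4 was low in replicate 1 of the same group on both sides, with 2634 and 2728 against 4096 to 4388. A different replicate was thus the low one for each of these genes.

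Pearson's r was 0.75 for Nos3, 0.74 for Klf2, 0.72 for Klf4, 0.59 for Ptgs1, 0.46 for Ednrb, 0.20 for Ece1 and 0.01 for Ednra. Low and high values alike could join unlike parts. In the sham and the tMCAO libraries r was 0.71 and -0.04 for Ece1, and -0.83 and 0.78 for Ednra. For Ptgs1 it was -0.27 and 0.67, and for Klf4 0.28 and 0.999. Without the 2 points farthest from the median r was 0.78 for Edn1, 0.76 for Ptgs2 and 0.62 for Nos3. In an exact permutation test that reassigned the libraries within each surgery and time (1296 arrangements), p for r was 0.017 for Edn1, 0.0224 for Ptgs2 and 0.0386 for Nos3, and after adjustment over the 9 genes 0.101, 0.101 and 0.116. For rho the adjusted values were 0.0729, 0.0729 and 0.102. None of the 9 passed. The median r of the 9 genes was 0.72 and that of 15980 genes tested 0.37, and r was above 0.7 for 55.6% and 19.1% of them.

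**Figure D5:**
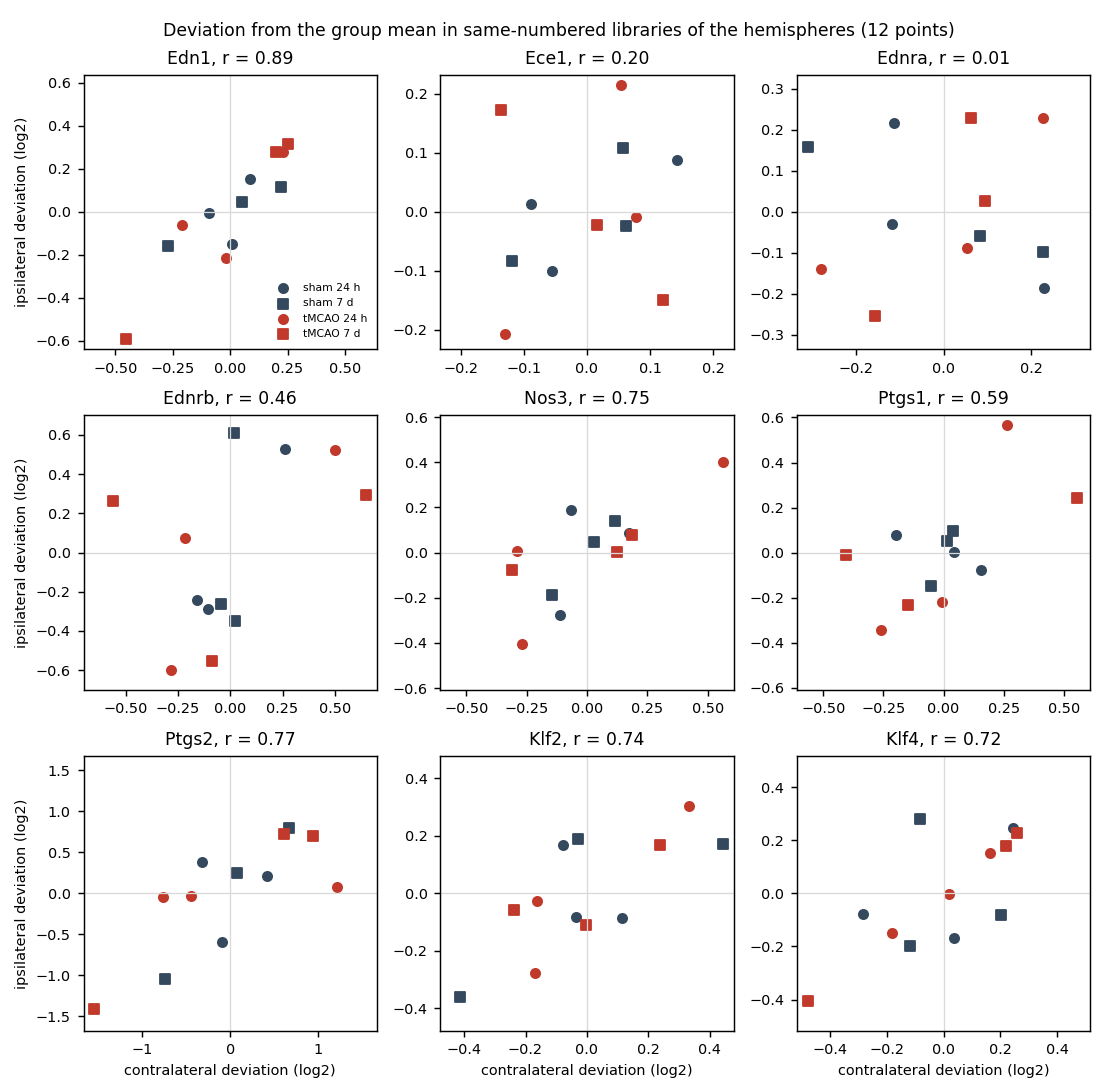
Deviation of the ipsilateral library from its group mean (vertical axes, log2) against that of the contralateral library of the same number (horizontal axes, log2) for the 9 genes at 12 points, with circles for 24 h, squares for 7 days and red for tMCAO. Edn1 follows the diagonal (r = 0.89), while r over all 12 is 0.20 for Ece1 and 0.01 for Ednra, whose sham and tMCAO points run in opposite directions.

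Over the 24 libraries, which share the 8 groups and the scaling, the members were also compared with each other as a description. Ednrb and Ece1 had r = 0.81, Nos3 with them 0.68 and 0.63, and Klf2 with Klf4 0.59. Ednrb and Klf4 had -0.60. Of all genes tested, those most like Nos3 were Piezo1 (r = 0.89), which encodes a mechanosensitive channel, Rhbdf2 and Pdcd6ip. Ptgs2 was nearest to Rgs16 (0.94), Sele, which encodes E-selectin of activated endothelium, and Bcl3. Ece1 was nearest to Cchcr1 (0.94), Hmox1 and Ddx39, and Ednrb to Tnc (0.96), AI506816 and Gapdh. The nearest to Klf4 were Herc4 (0.86), AI661453 and Tmpo, to Klf2 Gimap8 (0.78), Zscan21 and Tmem184b, and to Ptgs1 Tmem44 (0.85), Tgfbr3 and Tob2. Edn1 reached 0.74 with Tssk6, before Gm10812 and Slc35e1, and Ednra 0.77 with Axl, before Pde3a and Parp8. For Ednrb and Ece1 the ipsilateral tMCAO group at 24 h lies apart from the other 7 groups, and all these r include it.

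The other genes of these pathways were counted against the 10.0% of all genes that rose and the 8.23% that fell at 24 h, and the 3.27% and 9.95% at 7 days. In a list of 19 tested endothelin genes (another ligand, degrading enzymes and signalling proteins), 0 rose and 4 fell at 24 h, with a median of -0.20, and 0 changed at 7 days, with a median of 0.05. Edn3, which encodes a ligand that prefers the type B receptor, fell by 1.32 at 24 h on the log2 scale (SE 0.39, adjusted p = 0.0161), from 3819 to 4536 normalized counts in sham to 987 to 3132 in tMCAO libraries. Mme, which encodes neprilysin, a peptidase that degrades endothelin, fell by 1.02 (adjusted p = 0.0107) from 50 to 68 normalized counts in sham to 17 to 37 in tMCAO libraries.

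Of 24 genes around nitric oxide and cGMP, 5 rose and 5 fell at 24 h (median -0.14), and 0 rose and 1 fell at 7 days (median -0.15). The arginases, which use up the arginine that nitric oxide synthase needs, were among those that rose. Arg1 went from 0 to 2 normalized counts in sham to 189 to 349 in tMCAO libraries, and Arg2 from 2 to 6 to 33 to 55 (3.22, adjusted p = 0.00073). Slc7a1, which encodes a carrier that brings arginine into cells, fell by 0.92 (adjusted p = 0.00977), and Pde5a, whose enzyme degrades cGMP, by 0.83 (adjusted p = 0.0112). Arg1 is known from myeloid cells, whose markers rose beside it as given above. At 7 days Pde1b, of another cGMP-degrading enzyme, fell by 1.1 (adjusted p = 0.00158).

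Of 22 prostanoid genes, 3 rose and 5 fell at 24 h (median -0.04), and 1 rose and 4 fell at 7 days (median -0.11). Slco2a1, which encodes the prostaglandin transporter, rose at both times, by 1.69 (SE 0.21, adjusted p = 1.3e-05) and 1.82 (adjusted p = 1e-05), from 185 to 212 normalized counts in sham to 477 to 983 at 24 h and from 182 to 266 to 691 to 977 at 7 days. The prostacyclin receptor gene Ptgir rose by 0.87 at 24 h (adjusted p = 0.00606). The phospholipase gene Pla2g5 fell by 1.48 (adjusted p = 0.0366) and the receptor gene Ptgfr by 1.36 (adjusted p = 0.026). At 7 days Pla2g2d fell by 2.32 and Ptgdr2 by 2.10, both at means of 10.7 and 2.0 normalized counts after stroke.

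Of 28 genes of flow sensing and the KLF axis, 1 rose and 0 fell at 24 h (median -0.02), and 1 rose and 1 fell at 7 days (median 0.12). The gene that rose at 24 h was Hmox1, which encodes heme oxygenase 1, by 3.73 (SE 0.35, adjusted p = 5.8e-07), from 248 to 415 to 2069 to 7461 normalized counts. At 7 days Klf10 rose by 0.64 (adjusted p = 0.0291) and Cyp1b1 fell by 0.94 (adjusted p = 0.0478). Of 28 genes of other vasoactive systems, 2 rose and 5 fell at 24 h (median -0.26), and 3 rose and 3 fell at 7 days (median -0.37). Apln, which encodes the peptide apelin, rose at 24 h by 4.32 (adjusted p = 8.9e-07), from 157 to 188 normalized counts to 1958 to 6818, and its receptor gene Aplnr at 7 days by 1.62 (adjusted p = 0.0408). Ace, which encodes the angiotensin-converting enzyme, rose at 7 days by 0.90 (SE 0.14, adjusted p = 0.000152), from 7679 to 7886 to 11616 to 19581. The vasopressin receptor gene Avpr1a rose at 24 h by 3.35 from a mean of 9.0 normalized counts. Agt, the angiotensinogen gene, which astrocytes are known to express, fell by 2.06 at 24 h (adjusted p = 0.0152). The adrenergic receptor gene Adra1a fell by 1.89 at 24 h and fell by 2.21 at 7 days. Its relative Adra1b fell by 1.40 at 7 days.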

How the data were processed

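RNA of mouse brain microvessels was measured in 24 libraries of 8 groups, with groups and replicate numbers taken from the labels. The authors aligned trimmed reads to mm10 with STAR 2.5.2b, counted them with featureCounts 1.5.1 and normalized the counts with DESeq2 1.6.2, by the versions in the submitters' processing notes. Libraries judged outliers had been removed by the authors. The deposited values are a score: normalized counts, rounded to whole numbers, so no count model was run here. The log2 of the value plus 1 was fitted with limma 3.58.1 (R 4.3.3, mean-variance trend, 1 fit of all 8 groups) for 15982 genes averaging more than 5, and p-values were adjusted over these genes. The script was tested on simulated data. Other values came from Python 3.11.15 (scipy 1.17.1, pandas 2.3.3, numpy 2.4.6), and figures from matplotlib 3.10.9. Exon lengths came from GENCODE M21 and promoters (250 bases before to 50 after the start) from RefSeq.

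The 9 genes, the pathway lists and the marker lists were chosen with earlier results of these data known. Of each list the genes with the largest changes among those regulated were named, up to 2 in each direction and at each time, and for each of the 9 genes the 3 with the highest r. Edn2, Agtr2, Nppa, Nppb and Bdkrb1 of these lists were not found in the table. The soluble guanylate cyclase genes were matched by their older symbols. Reads per library were not used here, and the totals of 15924780 to 18787932 normalized counts do not give the depth.

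Same-numbered libraries of the hemispheres of sham mice deviated together, with r of 0.145 to 0.467 over all genes, and were taken as pairs. After tMCAO r was 0.066 to 0.36 at 24 h and 0.059 to 0.309 at 7 days, not above 0.1 for each number, so a shared pool of mice was not established there. Libraries of the 2 time points come from different mice. Between these, r by number was 0.00921, 0.1045 and 0.411 in the sham ipsilateral hemisphere. In the contralateral hemisphere of tMCAO mice it was 0.143, 0.00291 and 0.353. A single high r thus does not show shared mice, and the pairing of sham libraries remains an assumption. Same-numbered tMCAO libraries are set side by side only as such. Alternatives were a pseudocount of 0.5, no filter, a minimum mean of 20, median centring, scaling to endothelial markers, blocks, the compared groups alone, no fold limit, a robust prior and each library left out.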

Additional observations from a re-analysis of the deposited data

Results flagged for a closer look

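The genes below are listed because the effect of tMCAO against sham surgery in the ipsilateral hemisphere differed between 7 days and 24 h by the interaction term in limma. For Ednrb the effect changed by -2.47 on the log2 scale (adjusted p = 0.00283), from 2.50 at 24 h to 0.02 at 7 days. For Ece1 it changed by -0.65 (adjusted p = 0.0196), from 0.90 to 0.25. For Ptgs1 it changed by 1.16 (adjusted p = 0.0253), from -0.37 to 0.79, with opposite signs at the time points.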

How the results depend on the processing

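Over 504 values under other settings, 492 kept their side of the threshold, and over 378 with 1 library left out 355 did. Among values that were not regulated, 10 and 32 changed their sign. No regulated value turned its sign. Scaled to the endothelial markers, the count of regulated genes was 0 for tMCAO against sham at 7 days and 4 (Nos3, Edn1, Ednrb and Ece1) for the ipsilateral against the contralateral hemisphere at 24 h. Without a fold limit it was 1 (Ece1) for that comparison at 7 days. With 1 library left out the count ran from 2 to 4 for tMCAO against sham at 24 h (4 without stroke replicate 3), from 2 to 4 for the hemispheres at 24 h (4 without contralateral replicate 2 or ipsilateral replicate 3), from 0 to 2 for tMCAO against sham at 7 days (0 without sham or stroke replicate 3, 2 without stroke replicate 1) and from 1 to 4 for the difference of the stroke effects (1 without stroke replicate 2 at 24 h, 4 without sham replicate 2 or stroke replicate 1 at 7 days). The cause was not tested.

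With the replicate number as a block the counts were 2 for tMCAO against sham at 24 h, 1 at 7 days and 3 for the difference of the stroke effects, as without it. With same-numbered hemispheres paired, a pairing that the check did not bear out after tMCAO, it was 3 instead of 2 for the hemispheres at 24 h, through Ptgs2 (1.35, adjusted p = 0.0025), and no other call changed. The numbers of tMCAO and sham libraries pair no mice, with r of -0.25 to -0.11 at 24 h and -0.16 to 0.15 at 7 days.

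Each library pools hemispheres and each group has 3 libraries. Cell makeup and RNA per cell cannot be told apart. The normalized counts do not give the reads behind a low value such as that of Ptgs1.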
